A study of Homo sapiens with 44 samples.

Results

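Heme is the iron-containing ring that lets hemoglobin and myoglobin bind oxygen and that lets cytochromes carry electrons. Its synthesis starts in mitochondria with 5-aminolevulinate synthase, which exists as the housekeeping enzyme ALAS1 and the erythroid enzyme ALAS2, and ends when ferrochelatase inserts iron. Globin chains are made at high level in red cell precursors. They include embryonic (HBE1, HBZ), fetal gamma (HBG1, HBG2), alpha (HBA1, HBA2) and adult beta (HBB) chains. Myoglobin (MB), in contrast, is the oxygen store of heart and skeletal muscle, and heme oxygenase 1 (HMOX1) breaks heme down. These 10 genes (ALAS1, ALAS2, MB, HBE1, HBZ, HBG1, HBG2, HBA1, HBA2 and HMOX1), of 60499 listed, were followed through a heart differentiation. They were picked by name, by function and because ALAS2 was known to be high late while traces of globin RNA were present earlier, so levels of ALAS2 and the globins are given as description, with no test between groups. ALAS1, MB and HMOX1 were tested.

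The cells belonged to the established line H1, derived from a human embryo, and were sampled as 44 single wells in 12 groups. The pluripotent group (3 wells) grew on the laminin LN-521, and every other group was grown on LN-521 plus LN-221, laminins being basement-membrane proteins. The differentiation used CHIR99021, a GSK3 inhibitor that turns on Wnt signalling, at day 0 and IWP2, which blocks Wnt production, at day 3. Wells sampled before day 3 had therefore not received IWP2. Whether the day 0 and day 3 wells were taken before the addition of that day is not given here. Wells were sampled at days 0, 1 and 3 (3 wells each) and at days 5, 7, 9 and 11 (5 each). Days 14, 20, 30 and 90 had 3 wells each. The supplement, at first without insulin, was the complete one from about day 10. No group carries a transgene, a single cell line was used, and the wells are called biological replicates without a statement that they came from separate differentiations, so p values measure the spread between wells.

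Of the 10 genes, 8 passed the filter on low counts, which HBZ and HBG1 did not. Libraries held 6937136 to 33498022 counts and were run on 5 lanes, and their RNA integrity number was 7.4 to 10. TNNT2, the troponin of heart muscle, was at 5.91 to 7.39 CPM (counts per 1000000 after TMM scaling between libraries) at day 0 and at 2513 to 3882 CPM at day 90. At day 11 replicates 1 and 2 stood apart from replicates 5, 6 and 7. Their AFP, a gene of yolk sac and liver endoderm, was 3890 and 7287 CPM against 80.3 to 97.0 CPM, and their TNNT2 was 1011 and 648 CPM against 1630 to 1645 CPM. Values at day 11 are therefore given well by well.

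The globin genes come in near-identical copies, which bears on how their counts can be read. In GENCODE 29 transcripts the coding sequences of HBA1 (ENSG00000206172, chr16:176680-177522) and HBA2 (ENSG00000188536, chr16:172876-173710), 426 bases each, have 0 differences. Those of HBG1 (ENSG00000213934, chr11:5248079-5249859) and HBG2 (ENSG00000196565, chr11:5253190-5505605), 441 bases each, have 2. A window of coding positions 380 to 439 shows how little separates the gamma genes, with the differing base in capitals (GRCh38, minus strand, chr11:5248364-5248423 for HBG1 and chr11:5253282-5253341 for HBG2).
HBG1: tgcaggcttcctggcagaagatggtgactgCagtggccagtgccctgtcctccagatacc
HBG2: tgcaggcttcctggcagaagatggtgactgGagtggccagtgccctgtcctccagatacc
The split of reads within each pair is therefore uncertain, and the pairs are mostly given as sums. HBE1 (ENSG00000213931, chr11:5268345-5505652, minus strand) differs from HBG2 at 73 of 441 coding positions. The HBE1 and HBG2 gene models reach far upstream and overlap each other and 19 and 20 genes in all, among them olfactory receptor genes. HBZ (ENSG00000130656) lies at chr16:152687-154503 and overlaps HBM.

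ALAS2 RNA was low through the first month and abundant at day 90. The gene (ENSG00000158578, chrX:55009055-55031064, minus strand) was at 0.235, 0.333 and 0.345 CPM in the 3 day 0 wells and at 0.101, 0.0964 and 0.0311 CPM at day 1, which is 3, 3 and 1 counts. At day 3 the wells had 1.15, 0.819 and 0.641 CPM. Day 5 brought an early peak, with 8.90, 5.71, 6.76, 3.22 and 9.30 CPM in replicates 1 to 5. All 5 day 5 wells lay above all day 3 wells. The level then ran from 1.23 to 3.12 CPM at day 7, 2.27 to 5.35 CPM at day 9 and 1.38 to 3.14 CPM at day 11. It was lower again at day 14 (0.502, 0.826 and 1.12 CPM) and day 20 (0.767, 0.274 and 1.06 CPM). At day 30 the wells had 2.73, 2.26 and 0.463 CPM, and at day 90 they had 58.0, 38.5 and 81.9 CPM. The lowest day 90 well stood above the highest well of every other group. In bulk RNA, more cells that express a gene and more RNA per cell cannot be told apart.

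**Figure D1:**
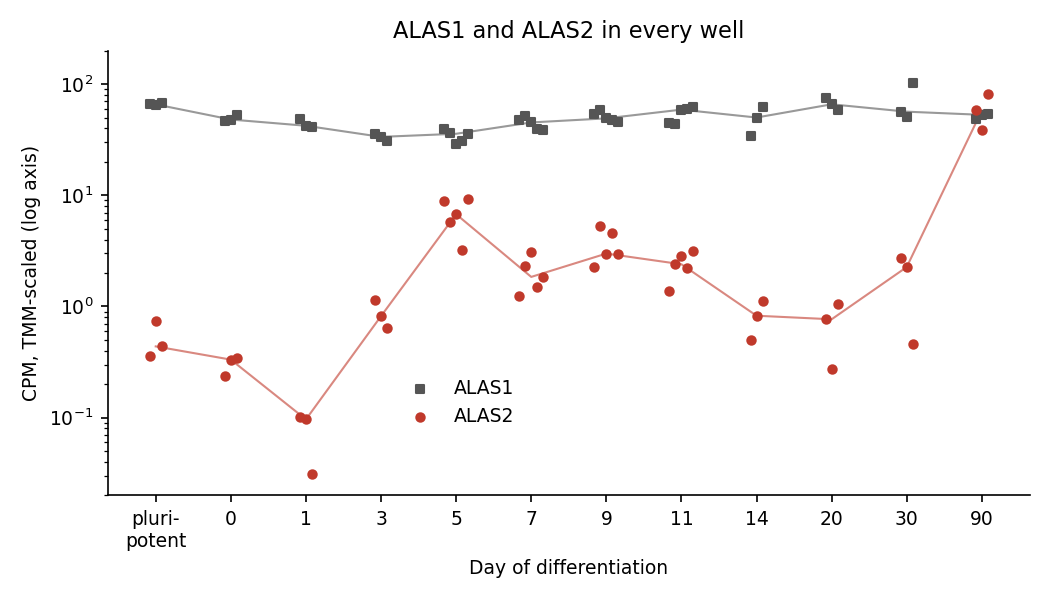
ALAS1 (grey squares) and ALAS2 (red circles) in each of the 44 wells, in TMM-scaled CPM on a log axis against the day of differentiation; lines join group medians. ALAS2 peaks at day 5 (3.22 to 9.30 CPM) and reaches 38.5 to 81.9 CPM at day 90, where it meets ALAS1, which stays between 29.1 and 103 CPM in all wells.

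As fitted, ALAS2 at day 90 was 5.04 ± 0.50 (SE) log2 units above day 30 and 7.59 ± 0.57 log2 units above day 0, values the choice of the gene already used. Against day 1, where no well had more than 3 counts, day 90 was at least 613-fold higher (59.5 ± 21.8 CPM, SD, n = 3, over a mean floor of 0.0970 CPM for 3 counts per library). The smaller day 5 level was at least 69.9-fold higher on the same floor. The other steps were -1.94 (day 1 against day 0), 3.44 (day 3 against day 1), 2.05 (day 9 against day 3) and -0.9995 (day 30 against day 9) log2 units. These 6 comparisons share groups and are not independent of each other. By group median the order ran from day 90 to day 5, day 9, day 11, day 30 and day 7, then day 14, day 3, day 20, pluripotent cells, day 0 and day 1. The ranges of neighbours were apart only between days 90 and 5, between days 7 and 14, and from the pluripotent cells to day 0 and on to day 1.

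ALAS2 shares 3 bases with APEX2, a DNA repair gene on the other strand, which was at 14.8 ± 2.32 CPM at day 30 and 14.9 ± 1.98 CPM at day 90 (SD, n = 3 each). No day 90 well was run on lanes 1, 2 or 3, where wells up to day 3 had 1 to 29 ALAS2 counts. On lane 5, which held 2 of the day 90 wells with 1295 and 1462 counts, the single well from that early period had 12.

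ALAS1, the housekeeping enzyme (ENSG00000023330, chr3:52198086-52214327), ran from 29.1 to 103 CPM over all wells and from 6.64 to 36.8 TPM. Group means went from 66.0 ± 1.37 CPM in pluripotent cells to 49.4 ± 3.33 CPM at day 0 (SD, n = 3 each) and reached their lowest at day 3, with 33.3 ± 2.55 CPM (n = 3). They were 51.0 ± 5.11 CPM at day 9 (n = 5). At day 30 the wells had 56.6, 50.4 and 103 CPM, and at day 90 they had 48.2, 53.0 and 54.3 CPM. None of the 6 comparisons met the call rule, an adjusted p under 0.05 over the 22955 genes tested together with a log2 change of at least 1. Day 9 was 0.61 ± 0.17 log2 units (SE) above day 3 (adjusted p 0.0051), day 30 was 0.46 ± 0.17 above day 9 (adjusted p 0.034), and day 90 was 0.07 ± 0.19 above day 0 (adjusted p 0.78). On the deposited TPM scale the day 9 and day 90 differences were -0.0568 and -0.763 instead, while the median gene moved by -0.57 and -0.76 log2 units.

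The balance of the enzymes can be read within each well, per transcript length and free of scaling between libraries. In TPM, ALAS2 made up 0.532% to 0.805% of the ALAS1 and ALAS2 sum at day 0, 10.2% to 25.4% at day 5 and 0.487% to 11.0% at day 30. At day 90 it made up 47.3%, 62.2% and 66.6%. ALAS2 thus exceeded ALAS1 in 2 of 3 day 90 wells and in no well of the other groups.

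RefSeq promoter entries were found for 3 of the 10 genes (GRCh38.p14). The 250 bases before the RefSeq start of both synthase genes are shown because their levels diverged, with matches to GATAA, the core that GATA factors bind, in capitals on either strand. The windows are chr3:52197833-52198082 (plus strand) for ALAS1 and chrX:55030978-55031227 (minus strand) for ALAS2.
ALAS1: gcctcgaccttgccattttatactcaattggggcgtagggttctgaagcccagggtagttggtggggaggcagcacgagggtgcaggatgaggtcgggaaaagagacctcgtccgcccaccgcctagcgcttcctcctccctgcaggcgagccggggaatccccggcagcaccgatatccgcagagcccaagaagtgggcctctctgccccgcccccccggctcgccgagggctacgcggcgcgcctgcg
ALAS2: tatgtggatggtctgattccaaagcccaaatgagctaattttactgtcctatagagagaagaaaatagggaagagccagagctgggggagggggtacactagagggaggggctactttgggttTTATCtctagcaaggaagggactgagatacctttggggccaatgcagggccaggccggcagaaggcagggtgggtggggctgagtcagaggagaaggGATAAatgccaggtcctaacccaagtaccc
ALAS2 held 2 matches and ALAS1 held 0, and 20.4% of 35116 promoter windows of this length held at least 1. The ALAS2 window also had 2 matches to CCACCC, the core of the site of KLF-type factors, found in 31.3% of windows, against 0 for ALAS1. Both had 1 match to CANNTG, the E-box, found in 61.8% of windows. The GENCODE 29 model of ALAS2 starts further upstream than the RefSeq start, so the end of its window, with the second GATAA match, lies within that model. These are letter matches only. GATA1, the erythroid GATA factor, had 0 counts in all 3 day 90 wells. GATA4 and GATA6, the factors of heart and endoderm, were at 121 ± 52.4 and 110 ± 9.11 CPM there (SD, n = 3 each) and at 131 ± 35.3 and 102 ± 15.8 CPM at day 30. Mean levels of GATA2, GATA3 and GATA5 at day 90 were 2.64, 0.83 and 16.3 CPM. At day 5 the means were 161 and 171 CPM for GATA4 and GATA6. Those of GATA2, GATA3 and GATA5 were 25.0, 17.4 and 60.5 CPM at day 5. Binding of any of these factors was not tested.

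HBE1 and the gamma globins had traces in the middle of the differentiation and few or no counts at days 30 and 90, unlike ALAS2 at day 90. Earlier, the group medians of HBE1 and ALAS2 both rose from day 3 to day 5, fell at day 7 and rose at day 9. Over these days HBE1 was at 0.223, 1.71, 0.994 and 2.04 CPM and ALAS2 at 0.819, 6.76, 1.85 and 2.99 CPM. HBE1, the embryonic epsilon chain, had 0 to 4 counts per well in pluripotent cells and at days 0 and 1. The day 3 wells had 0.517, 0.223 and 0.0755 CPM, and the day 5 wells had 1.82, 1.12, 1.11, 2.91 and 1.71 CPM. At day 7 they ran from 0.532 to 1.29 CPM. At day 9, replicate 2 had 13.4 CPM (398 counts) and the other 4 wells had 0.984 to 3.18 CPM. At day 11, replicates 1 and 2 had 9.16 and 37.2 CPM (192 and 806 counts), while replicates 5, 6 and 7 had 0.200, 0.267 and 0.207 CPM. The day 14 wells were close together at 4.82, 4.35 and 3.56 CPM, and the day 20 wells had 1.23, 0.821 and 1.79 CPM. HBE1 had 0 counts in 3 of 3 wells at day 30, and 1, 0 and 4 counts at day 90. With a mean floor of 0.165 CPM for 3 counts at day 30, HBE1 was at least 10.5-fold higher at day 5, at least 25.7-fold higher at day 14 and at least 7.75-fold higher at day 20.

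The gamma chains of fetal hemoglobin appeared later than HBE1. HBG1 and HBG2 together stayed at 0 to 8 counts per well through day 5 and had 2 to 16 counts at day 7. At day 9 the sum was 2.46, 8.59, 1.22, 0.813 and 1.11 CPM in replicates 1, 2, 3, 4 and 10. At day 11 replicates 1 and 2 had 4.67 and 18.2 CPM against 0.0345 to 0.490 CPM in the other 3 wells. The sum was 1.41, 3.27 and 4.56 CPM at day 14 and 1.42, 0.137 and 2.88 CPM at day 20. At day 30 it was 2 or 3 counts per well, and at day 90 it was 9, 0 and 3 counts. Almost all counts were given to HBG2, with 1267 over all wells against 42 for HBG1, which exceeded 3 counts in 3 wells (day 9 replicate 2 and day 11 replicates 1 and 2).

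The alpha chains were present at both ends of the early course. HBA1 and HBA2 together were at 2.21, 1.96 and 2.26 CPM in pluripotent cells (55 to 64 counts), 1.07, 1.33 and 1.04 CPM at day 0 and 0.404, 0.932 and 0.592 CPM at day 1. All 5 day 5 wells had 0 to 3 counts. The sum was 0.358 to 1.21 CPM at day 9 apart from replicate 2, which had 3.70 CPM, and 2.58 and 7.43 CPM in day 11 replicates 1 and 2 against 0.0345 to 0.359 CPM in the others. The day 14 wells had 1.81, 0.647 and 1.19 CPM. Day 90 wells had 1, 0 and 1 counts. The pluripotent counts went mainly to HBA2 (1.53 ± 0.13 CPM against 0.614 ± 0.293 CPM for HBA1, SD, n = 3), whereas at day 9 they went mainly to HBA1 (1.12 ± 1.25 against 0.166 ± 0.194 CPM, n = 5), subject to the shared sequence. HBZ, the embryonic zeta chain, exceeded 3 counts in 3 of 44 wells, with 12 counts in day 9 replicate 2 and 6 and 30 counts in day 11 replicates 1 and 2.

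**Figure D2:**
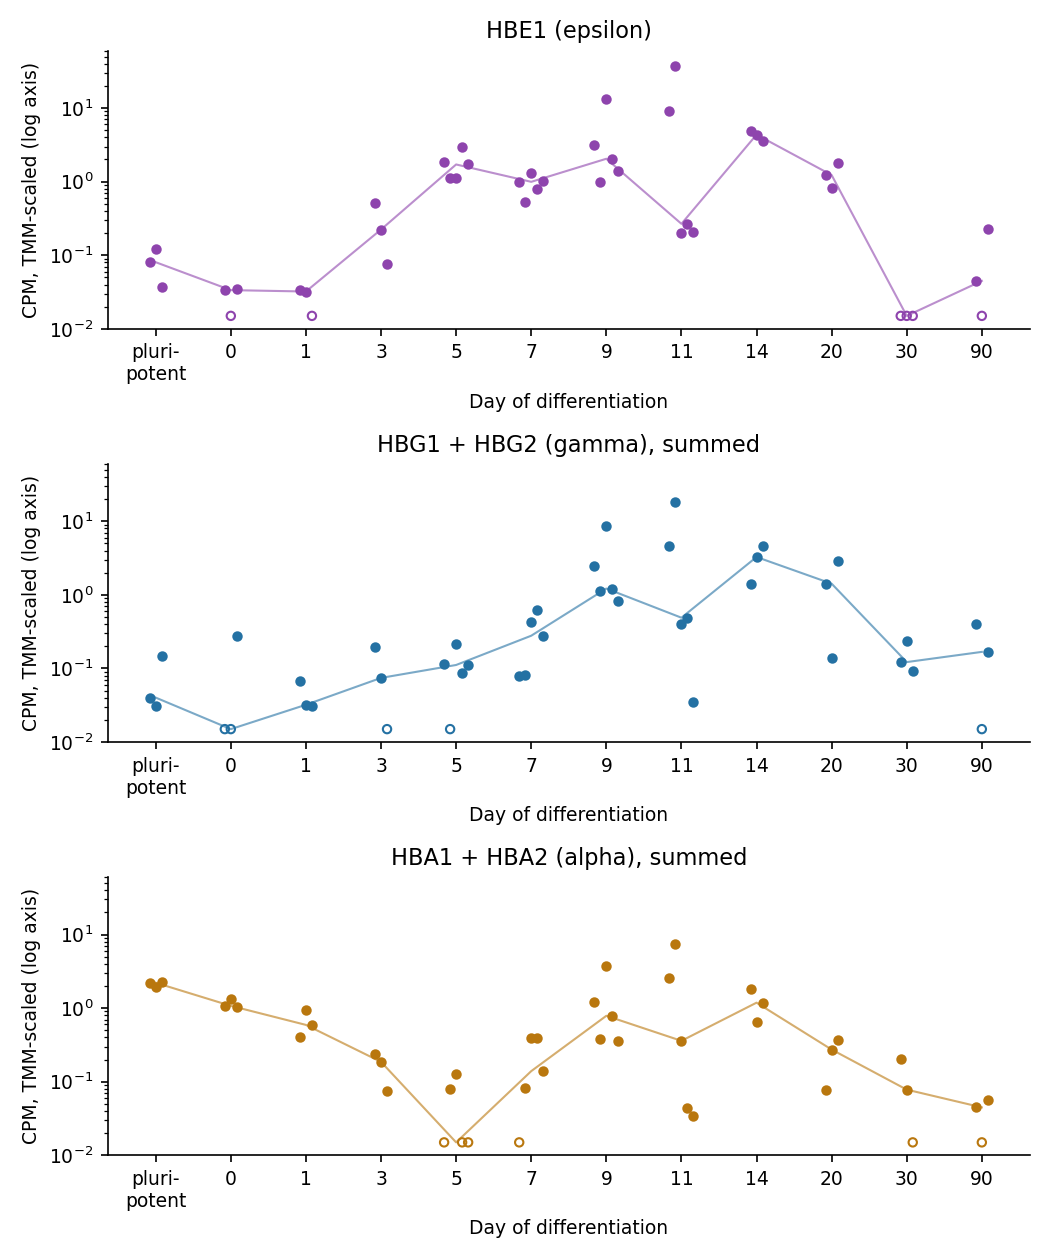
HBE1, the sum of HBG1 and HBG2 and the sum of HBA1 and HBA2 in each well, in TMM-scaled CPM on a log axis against the day of differentiation; open circles near the bottom mark wells with 0 counts, and lines join group medians. HBE1 reaches 37.2 CPM in 1 day 11 well and is at 0 in all 3 day 30 wells, while the alpha sum starts at 1.96 to 2.26 CPM in pluripotent cells.

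Other globin genes were read from a list of 7, of which 4 passed the filter. HBB, the adult beta chain, had at most 3 counts in any well. HBD, the minor adult delta chain, was at 13, 11 and 4 counts in day 90 replicates 2, 4 and 5 and at 0 in every well up to day 5, so it was at least 5.17-fold higher at day 90 than at day 0. HBD had few counts in other groups and passed the filter partly through the day 90 wells, so this difference is given as a description only. In the comparison of day 90 with day 0, 40.0% of all genes tested were called. Of the other 3 tested genes, HBQ1, the theta globin, fell (-2.47 ± 0.94 log2 units, SE, adjusted p 0.025), from 0.903 ± 0.188 to 0.155 ± 0.107 CPM (SD, n = 3 each). NGB, the globin of nerve cells, was also called lower (adjusted p 0.017), from 0.564 ± 0.109 CPM to a level under 3 counts in each day 90 well. Cytoglobin (CYGB), a globin of connective tissue cells, fell at day 1 by 2.95 ± 0.51 log2 units (SE, adjusted p 3.5e-05) from 2.78 ± 0.477 to 0.353 ± 0.073 CPM. It rose by 3.63 ± 0.51 log2 units to 4.44 ± 1.04 CPM at day 3 (adjusted p 7.8e-07).

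Globin RNA, GATA1 and ALOX15 were highest in the same few wells. GATA1 had its 3 highest counts in day 9 replicate 2 (25), day 11 replicate 2 (16) and day 11 replicate 1 (12), the wells with the 3 highest HBE1 levels. ALOX15, a lipoxygenase of maturing red cells, was at 20.5 CPM in day 9 replicate 2 against 2.24 to 6.90 CPM in the other day 9 wells, and at 10.9 and 26.0 CPM in day 11 replicates 1 and 2 against 1.34 to 1.42 CPM. In the same wells AFP was at 4221 CPM against 175 to 1217 CPM at day 9, and summed markers of hepatic or yolk sac endoderm (8 genes) reached 7164 CPM at day 9 and 9856 CPM at day 11, with the lowest wells at 775 and 290 CPM. At days 14, 20 and 30 that sum was 3610 to 4606, 1172 to 5286 and 25.1 to 392.5 CPM. LUM and DCN belong to a list of fibroblast or smooth muscle markers, whose other genes are not given here. Both had their highest level of the day in day 9 replicate 2 (338 and 35.7 CPM) and day 11 replicate 2 (861 and 113 CPM). Their medians were 131 and 8.60 CPM at day 9 and 63.2 and 5.25 CPM at day 11. The part of endoderm or fibroblast cells in the globin levels was not tested. ALAS2 in CPM stayed within the range of the other wells of the day in day 9 replicate 2 (2.96) and day 11 replicate 2 (2.40), and was the lowest of its day in day 11 replicate 1 (1.38). As a share of the ALAS1 and ALAS2 sum in TPM, however, it was 10.1% in day 11 replicate 2 against 5.07% to 6.27% in the other day 11 wells. That share was 7.07% in day 9 replicate 2, within the 4.55% to 11.1% of the other day 9 wells.

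**Figure D3:**
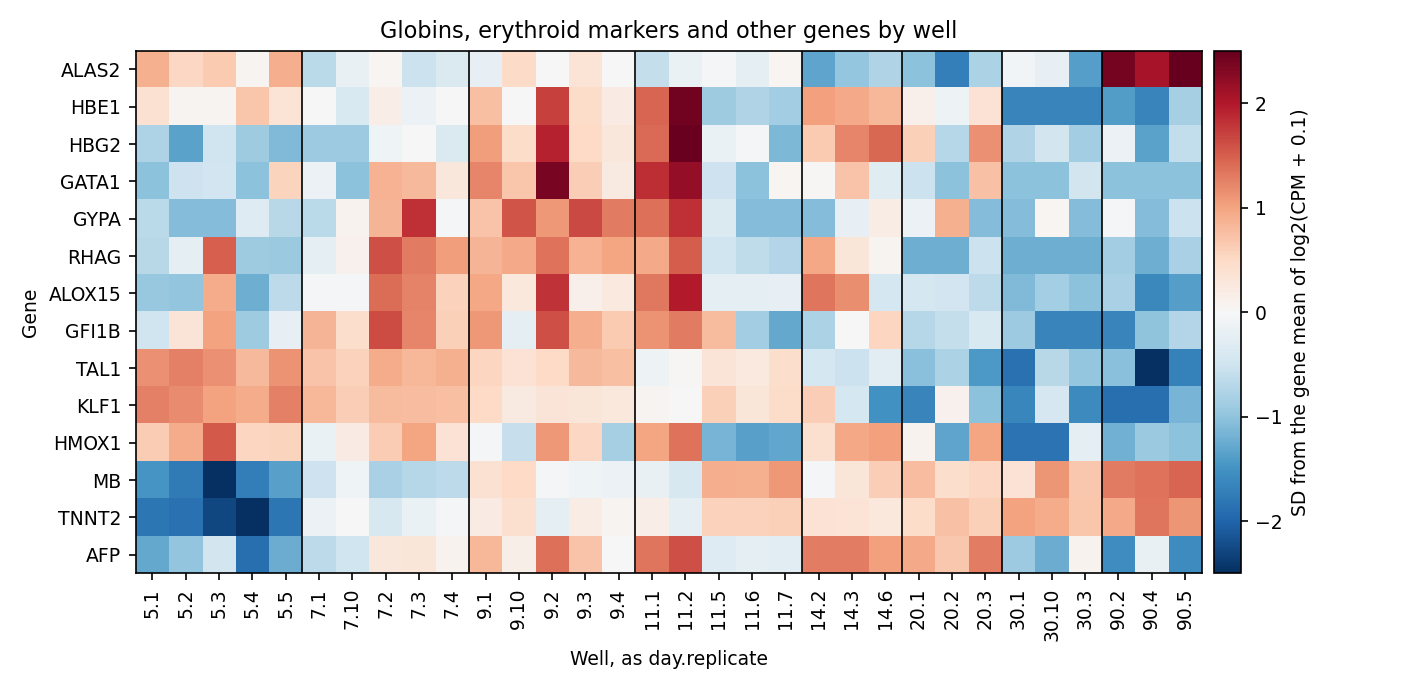
Each column is a well from day 5 on, named as day.replicate, and each row a gene, coloured by its distance from the gene's mean of log2(CPM + 0.1) in SD. HBE1, HBG2, GATA1, ALOX15 and AFP are high together in wells 9.2, 11.1 and 11.2, whereas ALAS2 is highest in the 3 day 90 wells, where GATA1 has 0 counts.

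Of a list of 20 erythroid marker genes, 18 were tested, and they moved in opposite directions around day 9. From day 3 to day 9, 7 rose and 3 fell, in a comparison in which 12.3% of all genes were called higher and 8.88% lower. TAL1, a blood and endothelial transcription factor, rose by 5.82 ± 0.57 log2 units (SE, adjusted p 2.5e-10) and ALOX15 by 5.47 ± 1.25 (adjusted p 0.00066), and RHAG, a red cell membrane channel, was at least 9.45-fold higher. The median of the list was 0.97 log2 units against 0.02 over all genes. From day 9 to day 30, 2 rose and 10 fell, where 9.69% and 9.25% of all genes were called, with a list median of -1.10 against 0.07. RHAG had 23 to 48 counts at day 9 and 0 in all day 30 wells, and TAL1 fell by 3.56 ± 0.49 log2 units (adjusted p 4.7e-07). TAL1 had its highest level at day 5, at 19.7 to 37.9 CPM, and GYPB, glycophorin B, at day 3, with 61 to 116 counts.

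From day 30 to day 90, the step with the late ALAS2 level, 0 of the 18 erythroid genes rose and 1 fell. Over all genes 2.65% were called higher and 2.44% lower, so both counts are near those shares. The gene that fell was TRIM58, a ubiquitin ligase of red cell maturation, by 1.60 ± 0.42 log2 units (SE, adjusted p 0.013). GATA1, GYPB and AHSP, the alpha-hemoglobin stabilizing protein, had 0 counts in all 3 day 90 wells, and KLF1, the erythroid Kruppel-like factor, had 0 to 3 counts. The summed level of the 20 genes was 41.3 to 53.0 CPM at day 90, 42.0 to 55.4 CPM at day 30 and 60.7 to 88.2 CPM at day 5, and 6 to 10 of them exceeded 3 counts at day 90 against 11 to 18 at day 11. Much of that sum came from EPOR, the erythropoietin receptor, at 16.2 ± 6.51 CPM at day 90, and from XK at 10.2 ± 2.63 CPM and ERMAP at 9.60 ± 2.09 CPM (SD, n = 3 each). Summed blood markers (11 genes) were 14.7 to 19.3 CPM at day 90 and 7.00 to 37.4 CPM at day 30.

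Myoglobin RNA rose between days 3 and 9 and was highest in CPM at day 90. MB (ENSG00000198125, chr22:35606764-35637951, minus strand) holds an intronic RNA gene with at most 3 counts in any well. It was at 0.731 ± 0.041 CPM at day 0, 0.216 ± 0.022 CPM at day 1 and 0.886 ± 0.287 CPM at day 3 (SD, n = 3 each). The 5 wells of day 5 ran from 0.771 to 3.87 CPM, those of day 7 from 7.83 to 18.7 CPM and those of day 9 from 18.0 to 39.5 CPM. All day 7 wells lay above all day 5 wells, while the day 7 and day 9 ranges overlapped. At day 11 replicates 5, 6 and 7 had 66.3, 64.1 and 83.1 CPM, and replicates 1 and 2, the wells with high AFP, had 16.9 and 12.9 CPM. Days 14 and 20 had 20.7 to 46.7 and 37.5 to 55.5 CPM. The day 30 wells had 33.5, 85.4 and 49.3 CPM and the day 90 wells 107, 117 and 132 CPM, above every other well. On the deposited TPM scale, where the median gene was 0.65 log2 units lower at day 90 than at day 30, that gap was not seen. MB was at 15.95, 62.5 and 46.3 TPM at day 30 and at 34.6, 53.1 and 39.1 TPM at day 90.

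MB rose by 4.87 ± 0.56 log2 units (SE) from day 3 to day 9 (edgeR quasi-likelihood test, adjusted p 9.3e-09) and by 7.33 ± 0.63 from day 0 to day 90 (adjusted p 2.35e-12, where 20.8% of all genes were called higher). It was also called at day 3 against day 1 (2.02 ± 0.72, adjusted p 0.032, where 11.0% of all genes were called higher), a call lost when any of 5 of the 6 wells was left out (all except day 3 replicate 1; adjusted p 0.0689 to 0.125). The call at day 30 against day 9 (1.10 ± 0.41, adjusted p 0.0345) was lost without day 9 replicate 2, 3 or 4 or day 30 replicate 3 or 10, with changes of 0.64 to 1.18 (adjusted p 0.0520 to 0.310). At day 90 the wells lay above those of day 30, as for 7.68% of all genes tested, but the difference of 1.09 ± 0.47 was not called (adjusted p 0.14). Without day 30 replicate 10 it was 1.54 and was called (adjusted p 0.0489). At day 1 against day 0 none of ALAS1, MB and HMOX1 was called, where 3.86% of all genes were called higher and 9.66% lower. MB differed by -1.74 ± 0.73 there (adjusted p 0.085).

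**Figure D4:**
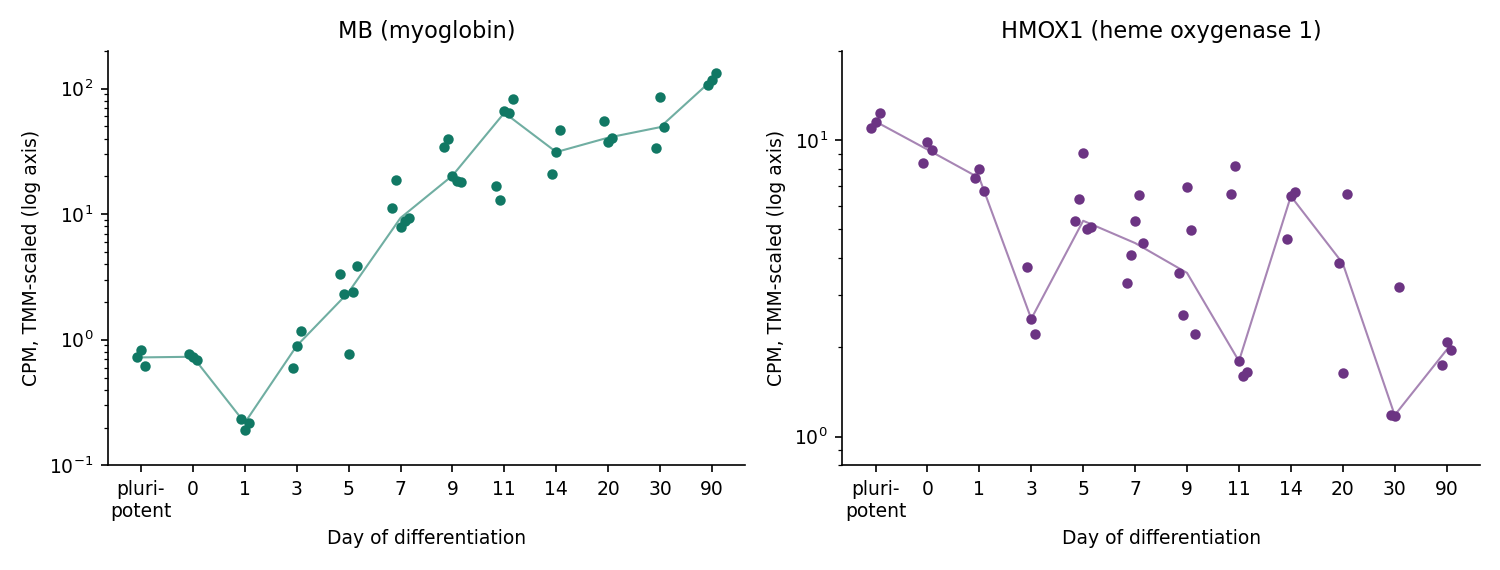
MB (left) and HMOX1 (right) in each well, in TMM-scaled CPM on log axes against the day of differentiation; lines join group medians. MB runs from 0.193 to 0.236 CPM at day 1 to 107 to 132 CPM at day 90, and at day 11 the 2 wells low in MB are the 2 wells high in HMOX1 (6.58 and 8.16 CPM).

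At day 90 myoglobin was at 119 ± 12.7 CPM (SD, n = 3), where HBE1 and the gamma and alpha sums had at most 9 counts in any well. Cytoglobin was at 2.43 ± 1.05 CPM there. Over the 12 group means of log2(CPM + 0.5), the 5 protein-coding genes most like MB among 15479 were SLC8A1 (the sodium-calcium exchanger of heart muscle, Pearson r 0.996), ANXA8L1 (0.994), KLHL30 (0.993), PPIC (0.993) and CLIC5 (0.991). For ALAS2 they were C1QTNF3 (0.947), FUNDC2 (0.932), CUEDC2 (0.927), FCGRT (0.922) and PLSCR4 (0.918). The 12 points come from the same libraries for all genes and are given as a description. FUNDC2, a mitochondrial outer membrane protein, went from 59.2 CPM at day 30 to 94.6 CPM at day 90 and PLSCR4 from 2.16 to 15.2 CPM, smaller differences than that of ALAS2.

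The enzymes that follow ALAS in the pathway showed no shared change at day 90. None of the 7 was called at day 90 against day 30, where 5.09% of all genes were called, so 0 of 7 is near that share. Their median was 0.15 log2 units against -0.07 over all genes. UROD, which makes coproporphyrinogen, was the most abundant in counts at 74.9 ± 17.7 CPM at day 90 (SD, n = 3), with 0.45 ± 0.22 log2 units (SE) above day 30 (adjusted p 0.22). FECH, ferrochelatase, was the enzyme called at day 30 against day 9, with a rise of 1.25 ± 0.18 (adjusted p 1.2e-06) from 18.5 ± 2.20 (n = 5) to 43.8 ± 14.4 CPM (n = 3). It stayed at 48.8 ± 3.79 CPM at day 90. From day 9 to day 30, 9.69% of all genes were called higher and 9.25% lower. ALAD, the step right after ALAS, was 0.98 ± 0.18 log2 units above day 0 at day 90 (adjusted p 2.5e-05), just under the size required. UROS, CPOX and PPOX were not called in any of the 6 comparisons, with changes of -0.74 to 0.51, and neither was UROD, whose changes ran from -0.91 to 0.94.

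**Figure D5:**
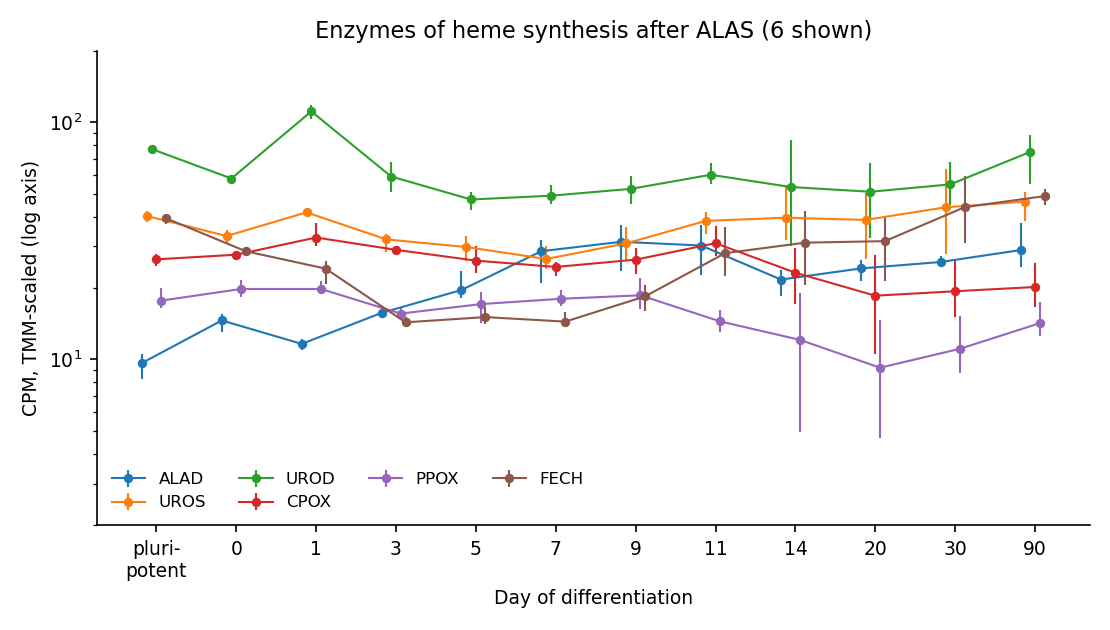
Group means of 6 heme synthesis enzymes after ALAS, in TMM-scaled CPM on a log axis against the day of differentiation; bars run from the lowest to the highest well (3 or 5 wells a group). FECH climbs from 18.5 CPM at day 9 to 48.8 CPM at day 90, and UROD is at 74.9 CPM at day 90.

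Among 15 genes of heme transport and its regulation, the widest changes were those of PPARGC1A, a coactivator of mitochondrial genes that also acts on ALAS1. It rose by 5.60 ± 0.51 log2 units (SE, adjusted p 5.0e-11) from 0.779 ± 0.103 CPM at day 3 (SD, n = 3) to 38.0 ± 10.3 CPM at day 9 (n = 5), and by a further 1.77 ± 0.35 to day 30. ALAS1 changed by 0.61 over the first of these steps and was not called. A link between PPARGC1A and ALAS1 was not tested. FLVCR1, which exports heme from the cell, fell by 2.54 ± 0.23 log2 units from day 0 to day 90 (adjusted p 7.2e-12), and FLVCR2, its relative, by 1.81 ± 0.27. SLC48A1, which brings heme out of lysosomes, rose by 1.43 ± 0.23 in the same comparison (adjusted p 2.25e-06). In it 2 of the 15 rose and 2 fell, where 20.8% of all genes were called higher and 19.2% lower. At day 90 against day 30, 2 of the 15 rose and 0 fell, where 2.65% and 2.44% of all genes were called. PGRMC1, a heme-binding membrane protein, rose by 1.10 ± 0.26 (adjusted p 0.0058), and ABCB6, a porphyrin transporter, by 1.15 ± 0.37 (adjusted p 0.041) with overlapping wells. SLC25A38, the mitochondrial glycine carrier that feeds ALAS, was at 23.3 ± 1.29 CPM at day 30 and 25.3 ± 6.09 CPM at day 90.

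HMOX1, the inducible heme oxygenase (ENSG00000100292, chr22:35380361-35394214), went down in the course of differentiation. It was at 11.0, 11.5 and 12.4 CPM in pluripotent cells, 8.36, 9.88 and 9.29 CPM at day 0, 7.45, 7.97 and 6.73 CPM at day 1 and 3.73, 2.49 and 2.23 CPM at day 3. These 4 groups did not overlap in this order. Of all genes tested, 29.4% had all wells lower at day 1 than at day 0, and 27.0% at day 3 than at day 1. Day 5 wells were at 5.00 to 9.03 CPM, all above the day 3 wells. The range was 3.30 to 6.52 CPM at day 7, 2.21 to 6.97 CPM at day 9, 4.62 to 6.68 CPM at day 14 and 1.64 to 6.57 CPM at day 20. At day 11 replicates 1 and 2 had 6.58 and 8.16 CPM against 1.60 to 1.80 CPM in replicates 5, 6 and 7. The day 30 wells had 1.18, 1.17 and 3.20 CPM and the day 90 wells 1.75, 2.09 and 1.96 CPM.

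HMOX1 fell by 2.25 ± 0.50 log2 units (SE) from day 0 to day 90 (adjusted p 0.00027, where 19.2% of all genes were called lower). It fell by 1.39 ± 0.48 from day 1 to day 3 (adjusted p 0.027, where 6.80% of all genes were called lower), a call lost without day 1 replicate 1 or 2 or day 3 replicate 2 or 3 (adjusted p 0.0584 to 0.114). At day 30 against day 9 the change of -1.12 ± 0.46 was not called (adjusted p 0.059). It was -1.24 to -1.79 and was called without day 9 replicate 4 or 10 or day 30 replicate 3. Day 90 and day 30 differed by 0.04 ± 0.51 (adjusted p 0.98). In the same step from day 1 to day 3, 5 of 10 NRF2 target genes, the oxidative stress response to which HMOX1 belongs, fell and 0 rose. The cystine carrier SLC7A11 fell by 4.34 ± 0.61 log2 units (adjusted p 7.6e-07), from 170 to 8.36 CPM. It had first risen by 2.84 ± 0.57 log2 units from 23.7 CPM at day 0, a step at which HMOX1 did not rise. The quinone reductase NQO1 fell by 2.30 ± 0.52 (adjusted p 0.00082) and TXNRD1, a thioredoxin reductase, by 1.46 ± 0.18 (adjusted p 1.0e-07).

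HMOX2, the constitutive oxygenase, fell in the same step as HMOX1, by 1.57 ± 0.19 log2 units (SE) at day 3 against day 1 (adjusted p 5.4e-08), from 40.0 ± 2.76 to 13.5 ± 1.72 CPM (SD, n = 3 each). It was at 46.9 ± 3.49 CPM at day 90, where HMOX1 was at 1.93 ± 0.17 CPM. BLVRB, a biliverdin reductase, rose by 1.12 ± 0.25 from day 30 to day 90 (adjusted p 0.0039), from 21.2 ± 3.56 to 45.9 ± 6.17 CPM. It was 1 of 4 genes tested in this list of 5, where 2.65% of all genes were called higher. BACH1, the heme-sensing repressor of HMOX1, was not called in any of the 6 comparisons, with group means from 67.6 to 123 CPM.

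Over the 27 listed genes of heme synthesis, transport and breakdown, of which 26 were tested, 3 were called at day 1 against day 0 (background 13.5%), 3 at day 3 against day 1 (17.8%), 3 at day 9 against day 3 (21.2%), 3 at day 30 against day 9 (18.9%), 3 at day 90 against day 30 (5.09%) and 6 at day 90 against day 0 (40.0%). The day 90 against day 30 count is the one that lay above its background share, and it was 1 without day 30 replicate 3 and 0 when the 2 groups were fitted alone, a setting in which 2 genes of the whole table were called.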

How the data were processed

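RNA was measured as stranded total-RNA libraries of 150 bp paired-end reads, per the labels' protocols. The submitters' processing notes name cutadapt, STAR 2.5.2b, RSEM 1.2.31 and hg38. The annotation and the strand setting of the counting are not given in the sources used here. The authors deposited estimated counts per gene (expected counts), of which 93.8% are whole, and TPM, scaled for length and to equal sums. Another deposited table gives the RNA integrity score, the lane and a batch that is equal for all libraries. All columns matched a labelled sample. Of 60499 gene identifiers, 56769 were named through GENCODE 29 and 3730 were not found.

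Expected counts were rounded. Genes were filtered with filterByExpr, libraries scaled by TMM, and all 44 libraries entered the quasi-likelihood fit of edgeR 4.0.16 (R 4.3.3) with a coefficient for each group, read as 6 comparisons over 22955 genes with Benjamini-Hochberg adjustment. Calls needed an adjusted p under 0.05 and a log2 change of at least 1, and SE is the log2 change over the root of F. Day 11 has 5 labelled wells where the series text gives 3, and all 5 were used. The smallest readable level was taken as 3 counts in a library, which covers counting error only, since reads carry no molecular identifiers. The steps were tested on simulated data. The alternatives were RLE scaling, no filter, DESeq2 1.42.0, limma 3.58.1 on log2(TPM + 1), a replicate term, a lane term, the compared groups alone and leaving out each well. One further alternative, without the 11 wells of days 11, 14 and 20, was added after seeing the data.

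The members and the gene lists were chosen with earlier results of these data known. Named genes are the members, the enzymes after ALAS (1 is not reported here), per list at most 4 called genes with the largest changes and wells that do not overlap, the 5 genes most like ALAS2 and MB, and genes overlapping a member. Others, such as the erythroid genes at 0, the transcription factors GATA2, GATA3, GATA4, GATA5 and GATA6, and list genes given as levels, were named after their values were seen.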

Additional observations from a re-analysis of the deposited data

Results flagged for a closer look

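Within groups of 4 to 10 wells, 33 sets of member values were examined for a single well far from the rest. The rule used the gap to the nearest well over the whole range and a 95% critical value. Its nominal rate of 1 in 20 assumes normally spread values, which globin levels near 0 need not follow. The flags are therefore a description and not a test. The rule picked out 7 values, all in day 9 replicate 2 or day 11 replicate 2. In day 9 replicate 2, HBE1 was at 13.4 CPM (others 0.984 to 3.18), HBG2 at 8.38 CPM (others 0.813 to 2.46), HBA1 at 3.33 CPM (others 0.358 to 0.834) and HBZ at 0.404 CPM (others 0 to 0.0393). In day 11 replicate 2, HBE1 was at 37.2 CPM (others 0.200 to 9.16), HBG2 at 17.9 CPM (others 0.0345 to 4.197) and HBZ at 1.38 CPM (others 0 to 0.286). The 4 globins share wells, and HBG2 and HBE1 share part of their gene models, so these are not separate events.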

How the results depend on the processing

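As a ratio, counts of called genes moved most at day 90 against day 30, where 1168 were called. With the 2 groups fitted alone 2 genes were called (1760 at an unadjusted p under 0.05), with a lane term 730, without day 30 replicate 3 709 and without day 30 replicate 10 1794. By limma on log2(TPM + 1) the counts were 982 instead of 3102 (day 1 against day 0), 1750 instead of 4093 (day 3 against day 1) and 1560 instead of 4347 (day 30 against day 9). On that scale the split was 484 higher and 498 lower against 885 and 2217 at day 1, 620 and 3199 against 2832 and 2038 at day 9, 1066 and 494 against 2224 and 2123 at day 30, 85 and 1369 against 608 and 560 from day 30 to day 90, and 1098 and 5756 against 4777 and 4399 from day 0 to day 90. The listed heme pathway genes called on it were 1 (day 1 against day 0), 6 (day 9 against day 3) and 0 (day 90 against day 30), the last also 0 with the groups fitted alone. Leaving out single wells gave 1 to 2, 2 to 3, 3 to 4, 2 to 4, 1 to 4 and 6 to 8 such genes over the 6 comparisons, and 2408 to 2678, 3474 to 3841, 4317 to 4803, 3940 to 4584, 709 to 1794 and 8654 to 9068 called genes.

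The TPM scale reversed ALAS1 at day 1 (0.0295), day 9 (-0.0568) and day 90 against day 0 (-0.763), and HMOX1 at day 9 (-0.0749) and at day 90 against day 30 (-0.20). The last was also reversed without day 30 replicate 1 (-0.21) or 10 (-0.16), and was 0.703 without replicate 3. None of these HMOX1 differences was called. On that scale ALAS1 was called lower at day 90 than at day 30 (-1.13, adjusted p 0.0363), and the day 3 against day 1 calls of MB (0.646) and HMOX1 (-0.860) were lost. The cause was not tested. DESeq2 also called MB at day 1 (-1.77, adjusted p 0.0178) and HMOX1 at day 30 against day 9 (-1.08, adjusted p 0.0436). ALAS2 kept its direction under all alternatives run. At day 90 against day 30 it ranged from 4.57 to 5.52 log2 units when single wells were left out and was 2.75 on the log2(TPM + 1) scale, on which low values are compressed by construction.

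Replicate numbers did not pair the wells (correlations of deviations from -0.18 to 0.16). With a replicate block 3210, 4221, 4911, 4144, 1336 and 8652 genes were called over the 6 comparisons. The block called MB at day 1 against day 0 (-1.74, adjusted p 0.014) and at day 90 against day 30 (1.25, adjusted p 0.027) and HMOX1 at day 30 against day 9 (-1.18, adjusted p 0.030), and MB at day 30 against day 9 dropped under the size required (0.92). Days 30 and 90 share no replicate number, so no paired analysis was possible because of that for their comparison. Depth limits the globins at days 30 and 90, where 3 counts stand for a mean of 0.165 and 0.170 CPM.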

Other observations

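Of a list of 14 iron genes, 13 were tested. From day 9 to day 30, 3 of them rose and 2 fell, where 9.69% of all genes were called higher and 9.25% lower. SLC40A1 (ferroportin, the iron exporter) rose from 0.962 ± 0.628 CPM at day 1 to 60.3 ± 21.6 CPM at day 3 (log2 change 5.97 ± 0.53, SE, edgeR adjusted p 4.3e-11) and from 27.7 ± 12.2 CPM at day 30 to 102 ± 29.3 CPM at day 90 (1.88 ± 0.43, adjusted p 0.0045). TFRC, the transferrin receptor that brings iron in, fell by 1.41 ± 0.25 log2 units from day 3 to day 9 (adjusted p 2.0e-05) and rose by 1.60 ± 0.25 to day 30 (adjusted p 3.7e-06). HAMP, hepcidin, rose by 2.67 ± 0.63 from day 9 to day 30 (adjusted p 0.0011), to 3.12 ± 1.70 CPM. In that step TFR2, the other transferrin receptor, fell by 1.45 ± 0.47 (adjusted p 0.016) and FTL, the ferritin light chain, by 1.11 ± 0.23 (adjusted p 0.00026).

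Of 11 hypoxia response genes, 8 rose and 0 fell between day 0 and day 90, where 20.8% of all genes were called higher. The list median was 1.60 log2 units against 0.06 over all genes. CA9, a carbonic anhydrase, was the member called at day 90 against day 30, with a rise of 4.52 ± 0.61 log2 units (SE, edgeR adjusted p 8.2e-06) from 0.581 ± 0.308 to 13.8 ± 10.1 CPM (SD, n = 3 each). Of 10 genes of heme-bearing cytochromes and heme assembly, 3 rose and 0 fell from day 9 to day 30, against the same shares over all genes of 9.69% and 9.25%. These were MT-CYB (2.56 ± 0.60, adjusted p 0.0010), CYCS (1.28 ± 0.20, adjusted p 6.1e-06) and HCCS (1.08 ± 0.20, adjusted p 6.2e-05).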
